A study of Mus musculus with 6 samples.

Results

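Ribosome footprints were counted on 7 enzymes of glycolysis and lactate formation and on the glucose transporter Slc2a1 in a mouse pancreatic acinar cell line with and without Mettl18. The enzymes were Hk2, Aldoa, Gapdh, Pgk1, Eno1, Pkm and Ldha. Each gene was represented by 1 transcript identifier named in advance, and a row was kept where its deposited length value equalled the number of residues of the protein minus 9. All 8 rows met this rule, out of 67139 transcript rows that carry a length value. The deposited files list identifiers without gene symbols, so the pairing rests on the named identifiers and this length check; a second isoform of equal length would pass the same check. Footprints are the stretches of mRNA that a ribosome shields from RNase, and their number reflects both how much mRNA is present and how many ribosomes sit on it. No RNA-seq was used here, so these contributions cannot be told apart.

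The cells were 266-6, an established line with features of the enzyme-secreting acinar cell, either wild type (WT, 3 libraries) or Mettl18 knockout (KO, 3 libraries). Both genotypes had received a plasmid encoding Reg1 with a FLAG tag and had been kept for 48 h in serum-containing medium on gelatin. The lysis buffer for both contained cycloheximide at 100 μg/ml, which arrests elongating ribosomes. The METTL18 enzyme methylates RPL3, a ribosomal protein, on a histidine, and the comparison asks how footprints differ when it is missing. The labels do not say how the knockout was made, whether the cells are 1 clone, or whether the 3 libraries were grown as separate cultures; the p-values thus reflect library-to-library spread, which may be technical. Mettl18 itself and markers of acinar and other cells were not analysed here, because no symbol is paired with the other identifiers; the genotype and cell type labels are thus unchecked.

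Glycolysis begins when a transporter such as SLC2A1 (GLUT1) lets glucose into the cell and a hexokinase traps it as glucose 6-phosphate. Aldolase splits the phosphorylated sugar, GAPDH and PGK1 carry out the first ATP-yielding part of the pathway, enolase and pyruvate kinase the second, and LDHA turns pyruvate into lactate while restoring the cofactor that GAPDH needs. Several of these genes are textbook targets of the transcription factors HIF1 and MYC and are often regulated together.

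The WT libraries held 3792964 to 5131937 counts over distinct rows and the KO libraries 5379044 to 7106203, so the KO libraries were deeper. KO replicates 2 and 3 were the closest pair, with a chi-square per degree of freedom of 1.32 against 4.57 to 11.2 for the other pairs within a genotype. They were kept as separate samples, and results that change when they are summed are given as such. The 8 rows together took 0.197%, 0.238% and 0.174% of the WT counts, against 0.193%, 0.219% and 0.222% of the KO counts. The mean share of the 3 WT libraries was 0.203% ± 0.0328 (SD), and that of the 3 KO libraries 0.211% ± 0.0160 (SD), a gap well inside the spread between WT libraries. Without WT replicate 3 this difference turned from 0.0082 to -0.0064 percentage points.

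The fitted fold changes of the tested members fell on both sides of 0 on the log2 scale. The approximate 95% intervals included 0 for Pgk1 and Ldha, which lay below 0, and also for Eno1, Aldoa and Pkm, which lay above it. Only the intervals of Hk2 and Slc2a1 did not include 0. Of the 7 members with enough footprints for the test, Hk2 rose in KO cells and none of the others passed the threshold of an adjusted p under 0.05 (edgeR's quasi-likelihood test, Benjamini-Hochberg over 30588 transcripts). Among all transcripts tested, 5.14% were called higher and 4.30% lower, and the 1 call among 7 members is a single gene that is read against these shares. At an unadjusted p under 0.05, 2 members were higher (Hk2 and Slc2a1) and 0 were lower, where 12.7% of all transcripts tested were higher and 13.3% lower at that threshold. DESeq2's Wald test called 0 members in either direction, with Hk2 at an adjusted p of 0.152, and limma-voom called 1 higher and 0 lower. Of all transcripts tested, DESeq2 called 3.91% and limma-voom 5.23% higher. The log2 fold changes, KO over WT, ran from -0.43 for Ldha to 0.80 for Hk2, with a median of 0.41. The median over all transcripts tested was -0.06, and over the 1877 transcripts of at least 100 CPM (counts relative to the TMM-scaled library size) it was 0.16; in that abundant class 10.1% were called higher.

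**Figure D1:**
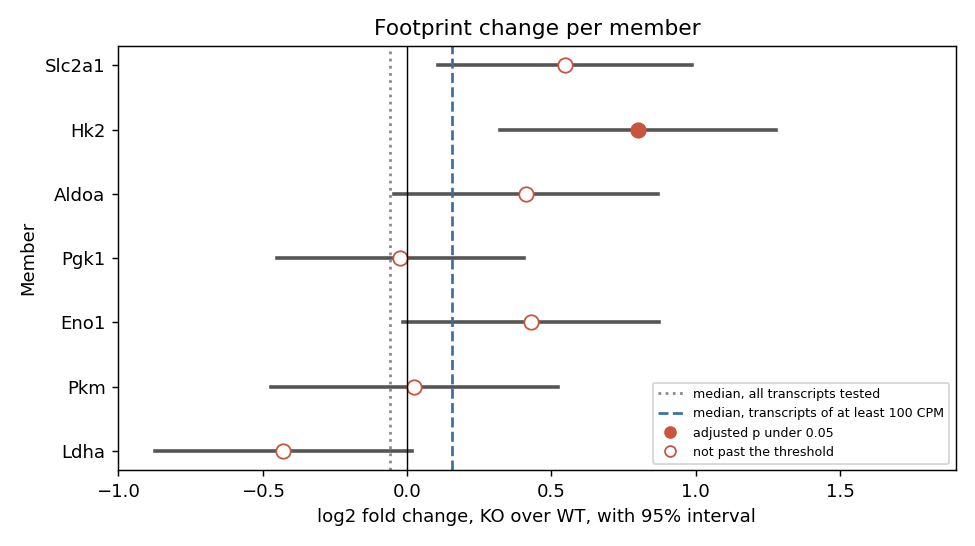
Log2 fold change of footprints, KO over WT (x axis), for each tested member in pathway order (y axis); bars are approximate 95% intervals from the edgeR fit, and the filled point passed the adjusted threshold. Hk2 lies highest at 0.80, Slc2a1, Eno1 and Aldoa follow at 0.41 to 0.55, Pkm and Pgk1 sit at 0.03 and -0.02 and Ldha is lowest at -0.43; the dotted and dashed lines mark the medians of all tested transcripts (-0.06) and of the abundant ones (0.16).

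The members at the entry to the pathway, Slc2a1 and Hk2, had few footprints and the highest fitted fold changes. Their approximate 95% intervals overlapped those of Eno1 and Aldoa. Hk2 (ENSMUST00000000642; gene at chr6:82725025-82774454, GRCm38.p6) encodes hexokinase 2, an inducible hexokinase that can bind mitochondria and is prominent in muscle and in many tumours. Its level was 5.62, 6.39 and 6.01 CPM in WT, against 9.22, 11.7 and 10.5 CPM in KO. Every KO library lay above every WT library, which was true of 15.5% of all transcripts tested. The WT mean was 6.01 ± 0.386 CPM and the KO mean 10.5 ± 1.24 CPM (SD, n = 3 per genotype). The fitted change was 1.74-fold, with an approximate 95% interval of 1.25 to 2.42 (log2 0.80 ± 0.21 SE; edgeR adjusted p = 0.0456).

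This change rested on few counts, 23 to 33 in a WT library against 53 to 79 in a KO library. From the counts alone, the ratio of KO to WT was 1.75, with an exact 95% interval of 1.34 to 2.29 that covers counting error only. Of all transcripts tested, 1648 had a higher log2 fold change. The direction of the Hk2 change was the same in each of 20 alternatives, with log2 values from 0.62 to 0.88, but the call was kept in only 7 of them, with adjusted p from 0.0395 to 0.212. Settings that lost it included edgeR fits with the replicate number as a block (adjusted p = 0.0839) and with KO replicates 2 and 3 summed (0.153). Thinning the libraries to equal totals (edgeR adjusted p = 0.155) and DESeq2's Wald test (adjusted p = 0.152) lost it too. So did edgeR fits without WT replicate 1 (0.125), WT replicate 3 (0.0762), KO replicate 1 (0.0629), KO replicate 2 (0.212) or KO replicate 3 (0.159). Each value is an adjusted p. Fewer transcripts of any kind were called in these settings: 1.16% to 4.30% of all tested were higher, against 5.14% as reported. The loss of the call is thus not particular to Hk2.

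**Figure D2:**
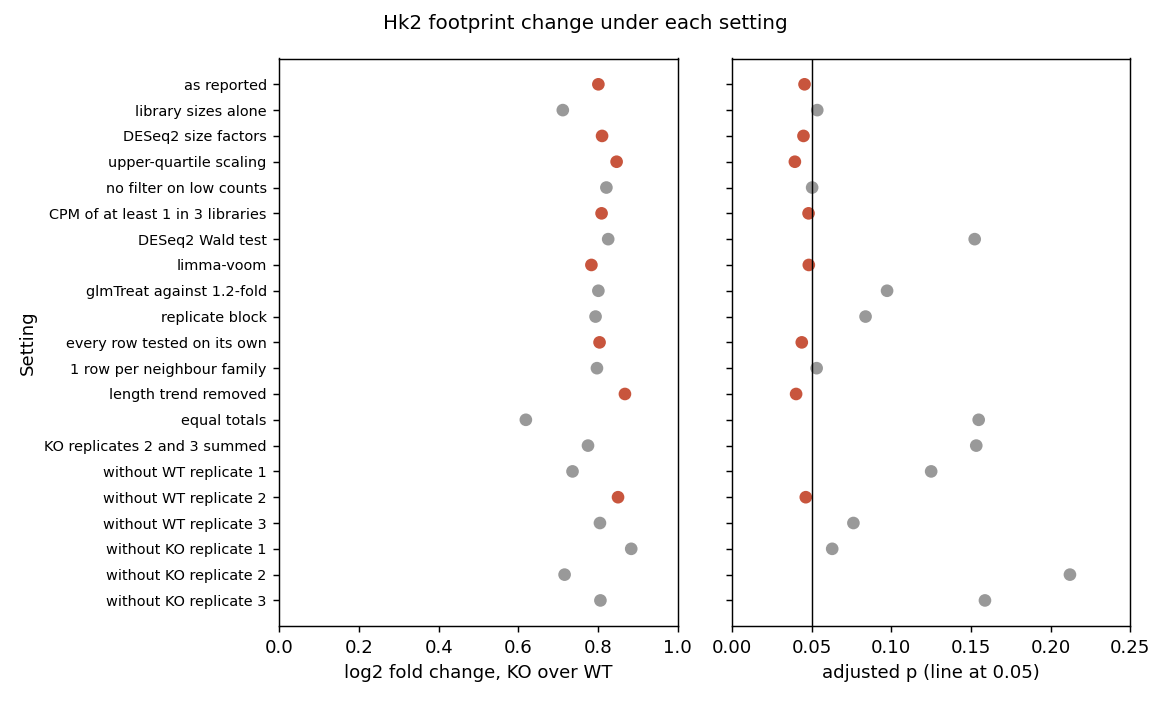
Hk2 under each setting (y axis): log2 fold change, KO over WT (left x axis), and Benjamini-Hochberg adjusted p (right x axis, with a line at 0.05); coloured points passed the threshold and grey ones did not. The size of the change stays between 0.62 and 0.88, while the adjusted p lies on either side of 0.05, from 0.0395 to 0.212.

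Slc2a1 (ENSMUST00000030398; chr4:119108745-119137330) encodes GLUT1, the glucose transporter of the plasma membrane in most dividing cells. It had 15.5, 17.5 and 11.7 CPM in WT and 22.7, 22.5 and 19.6 CPM in KO, again without overlap between the genotypes. Its WT mean was 14.9 ± 2.98 CPM and its KO mean 21.6 ± 1.77 CPM (SD, n = 3 per genotype). The fitted fold was 1.46 with an interval of 1.08 to 1.98 (log2 0.55 ± 0.20 SE). The edgeR adjusted p was 0.113, and it stayed above the threshold in all 20 alternatives, where it ran from 0.0556 to 0.343. Each WT library held 63 to 69 counts of it, against 99 to 160 for KO. From the counts alone, the ratio of KO to WT was 1.51, with an exact 95% interval of 1.27 to 1.79. This interval covers counting error only and leaves out the spread between libraries.

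Aldoa and Eno1, both abundant, had nearly the same change. Aldoa (ENSMUST00000032934; chr7:126795234-126800994) encodes aldolase A, which cleaves fructose 1,6-bisphosphate. Its level was 333.5, 452.9 and 282.7 CPM in WT, against 424.9, 493.0 and 503.8 CPM in KO. WT replicate 2 lay above KO replicate 1, so the genotypes overlapped. The log2 fold change was 0.41 ± 0.20 (SE; edgeR adjusted p = 0.237), with a WT mean of 356.4 ± 87.4 CPM and a KO mean of 473.9 ± 42.8 CPM (SD, n = 3 per genotype).

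Eno1 (ENSMUST00000080926; chr4:150236708-150248879) encodes enolase 1, which forms phosphoenolpyruvate. It had 387.3, 509.3 and 352.6 CPM in WT and 481.1, 590.9 and 610.0 CPM in KO, with the same single overlap of WT replicate 2 and KO replicate 1. The log2 fold change was 0.43 ± 0.20 (SE; edgeR adjusted p = 0.204). Without WT replicate 2 both genes passed the threshold, Eno1 at log2 0.61 (edgeR adjusted p = 0.0468) and Aldoa at log2 0.63 (edgeR adjusted p = 0.0381). In that fit 6.98% of all transcripts tested were called higher, against 5.14% with all libraries. Neither gene passed the threshold in any of the other 19 alternatives.

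For Eno1 and Aldoa, the intervals from counting error alone were narrower than the fitted ones. From the counts alone, the ratio of KO to WT was 1.37 for Eno1, with an exact 95% interval of 1.32 to 1.41, and 1.37 for Aldoa, with an interval of 1.32 to 1.41. The fitted intervals, which include the spread between libraries, were 0.991 to 1.83 and 0.969 to 1.83. The coefficient of variation within WT was 19.8% for Eno1 and 24.5% for Aldoa.

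Pgk1 and Pkm, the ATP-yielding kinases, showed fitted changes near 0. Pgk1 (ENSMUST00000081593; chrX:106187100-106203699) encodes phosphoglycerate kinase 1. It had 317.6, 358.3 and 237.7 CPM in WT and 263.7, 314.9 and 320.3 CPM in KO, and all 3 KO libraries lay within the WT range. Its log2 fold change was -0.02 ± 0.19 (SE; edgeR adjusted p = 0.954), with an interval of -0.45 to 0.40, so changes of up to 1.32-fold upwards or a fall to 0.732 of WT are within the error.

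Pkm (ENSMUST00000034834; chr9:59656576-59679372) encodes the muscle-type pyruvate kinase, whose transcripts are spliced into the forms M1 and M2. The WT libraries had 486.2, 742.3 and 460.4 CPM, the widest WT range among the abundant members, and the KO libraries had 496.3, 596.5 and 626.0 CPM. The log2 fold change was 0.03 ± 0.22 (SE; edgeR adjusted p = 0.955), with an interval of -0.47 to 0.52. A neighbouring row of the same length value, 522, had similar counts, at 89.7%, 86.1% and 89.3% of those of the member row in WT and 89.9%, 88.9% and 88.6% in KO. The files do not say which row is which splice form. The WT mean of this percentage was 88.4 ± 1.94 and the KO mean 89.1 ± 0.670 (SD, n = 3 per genotype), a difference smaller than the WT spread.

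Ldha (ENSMUST00000048209; chr7:46842274-46855627) was the member with the lowest fold change. It encodes the A chain of lactate dehydrogenase. The WT libraries had 330.6, 426.7 and 272.3 CPM and the KO libraries 221.9, 279.9 and 262.9 CPM, and the genotypes overlapped only in that KO replicate 2 lay above WT replicate 3. The WT mean was 343.2 ± 78.0 CPM and the KO mean 254.9 ± 29.8 CPM (SD, n = 3 per genotype). A full separation with every KO library below every WT library, which Ldha missed by this 1 pair, was seen in 15.3% of all transcripts tested. The log2 fold change of -0.43 ± 0.20 (SE) had an edgeR adjusted p of 0.208 and an interval of -0.87 to 0.02. It was negative in all 20 alternatives, from -0.57 to -0.23, with adjusted p from 0.0662 to 0.427. Among the abundant transcripts, 9.11% had a log2 fold change as low as this or lower.

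Gapdh (ENSMUST00000118875; chr6:125161852-125166467) encodes the enzyme that couples oxidation of the triose to phosphate uptake. Its row held 1, 2 and 0 counts in WT and 1, 2 and 1 counts in KO, too few for the filter, and it was not tested. A neighbouring row, which has the same length value of 324, had identical counts. The ratio of KO to WT was 0.957, with a counting interval of 0.162 to 6.53, so these few counts cannot show whether the level changed. How reads that match several places were counted is not given in the sources used here, and RefSeq lists 3 entries named as copies of Gapdh. The same table names 3 copies of Ldha, 5 of Aldoa and 3 of Pgk1, and 0 of Eno1 and Pkm. The Ldha, Aldoa and Pgk1 rows held at least 1289 counts in every library. Copies under other names were not counted, so these numbers do not show how many copies each gene has. The part of such copies in these values was not tested, and the Gapdh row is not read as the level of that enzyme.

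Per length, the 5 abundant members lay close together. In WT, Pkm had 106.0 ± 29.3 CPM per 100 residues, Ldha 103.4 ± 23.5, Aldoa 97.9 ± 24.0, Eno1 95.9 ± 19.0 and Pgk1 73.0 ± 14.7 (SD, n = 3), and each neighbour in this order differed from the next by less than the spread between libraries except Pgk1, which lay below Eno1 by more than either SD. Slc2a1 followed at 3.03 ± 0.606 and Hk2 at 0.655 ± 0.0421 CPM per 100 residues. In KO the order was Aldoa (130.2 ± 11.8), Eno1 (129.2 ± 16.0), Pkm (107.9 ± 12.8), Ldha (76.8 ± 8.99), Pgk1 (71.9 ± 7.49), Slc2a1 (4.39 ± 0.360) and Hk2 (1.14 ± 0.136), in the same unit. The KO means of Aldoa and Eno1 did not differ beyond the spread between libraries, nor did those of Ldha and Pgk1. Within each KO library, however, Ldha lay above Pgk1, at 66.8 against 63.2, 84.3 against 75.5 and 79.2 against 76.8.

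Within each library, Ldha stood above both Aldoa and Eno1 per residue in all 3 WT libraries and below both in all 3 KO libraries. The gap in WT was small, between 82.0 CPM per 100 residues for Ldha and 81.2 for Eno1 in WT replicate 3 at its narrowest. In KO replicate 1 the corresponding values were 66.8 for Ldha, 110.8 for Eno1 and 116.7 for Aldoa.

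**Figure D3:**
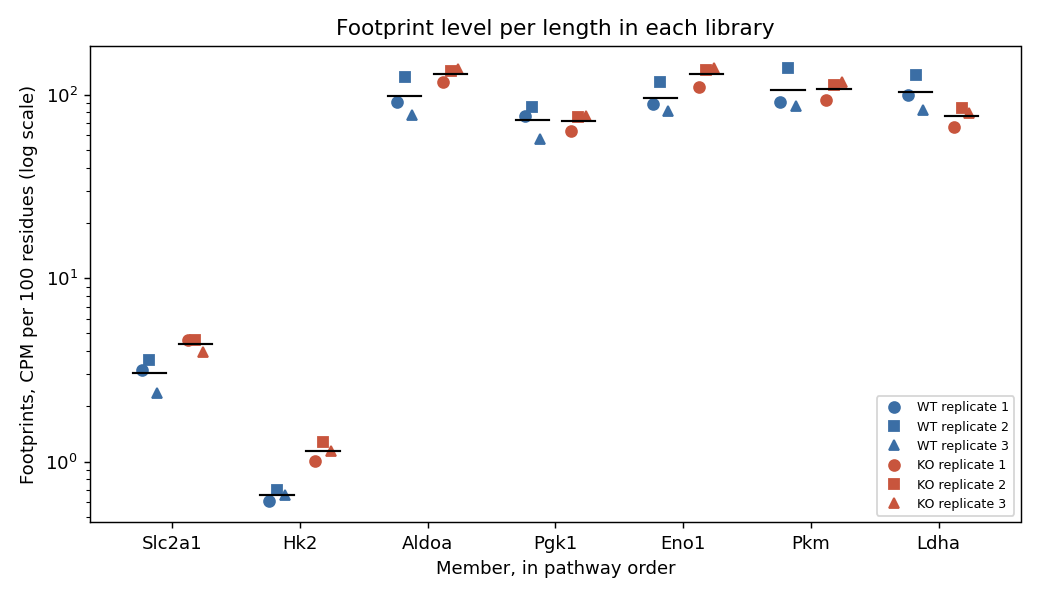
Footprint level of each tested member in CPM per 100 residues (y axis, log scale) in every library, WT in blue and KO in red, with black lines at the means; members are in pathway order on the x axis. The 5 abundant enzymes lie between 57.0 and 140.6, Slc2a1 between 2.37 and 4.61 and Hk2 between 0.613 and 1.28; in Hk2 and Slc2a1 the red points lie above all blue ones.

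Ratios of members within a library, which do not depend on the scaling between libraries, separated the genotypes for pairs of abundant enzymes whose levels overlapped. The pairs described here were chosen after their values were seen, and no p is given for them; with 3 libraries a group, an exact two-sided permutation test could not go below 0.1. The log2 ratio of Aldoa to Ldha counts was 0.01, 0.09 and 0.05 in WT, against 0.94, 0.82 and 0.94 in KO. On the linear scale, Aldoa had 1.036 ± 0.0263 times the counts of Ldha in WT, where both were nearly level, and 1.864 ± 0.0892 times in KO (SD, n = 3 per genotype). The log2 difference was 0.85.

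Eno1 to Ldha gave 0.23, 0.26 and 0.37 log2 in WT and 1.12, 1.08 and 1.21 in KO, and the difference of the means was again 0.85. Hk2 relative to Ldha was 2.31-fold and Slc2a1 relative to Ldha 1.95-fold higher in KO, each without overlap. Of the 11 pairs with Hk2 or Slc2a1, 6 did not overlap; Hk2 and Slc2a1 overlapped with each other and each with Aldoa, and Slc2a1 also with Eno1 and Pkm. The share of such separation among less abundant transcripts was not computed. Eno1 and Aldoa kept their proportion to each other: their log2 ratio averaged 0.23 ± 0.08 in WT against 0.24 ± 0.05 in KO (SD, n = 3 per genotype), and the libraries of the genotypes overlapped. Pkm and Pgk1 also overlapped, at 0.87 ± 0.23 and 0.93 ± 0.03 log2.

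Of the 10 pairs among the 5 abundant enzymes, 8 had ratios that did not overlap between the genotypes, the exceptions being Eno1 with Aldoa and Pkm with Pgk1. Aldoa and Eno1 were higher in KO relative to each of Pgk1, Pkm and Ldha, and Pgk1 and Pkm were higher relative to Ldha. Among all pairs of abundant transcripts, 51.3% had ratios that did not overlap, and 16.1% did so with a difference at least as large as that of Aldoa to Ldha. Separation of this kind was thus common among abundant transcripts and is not particular to these enzymes.

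**Figure D4:**
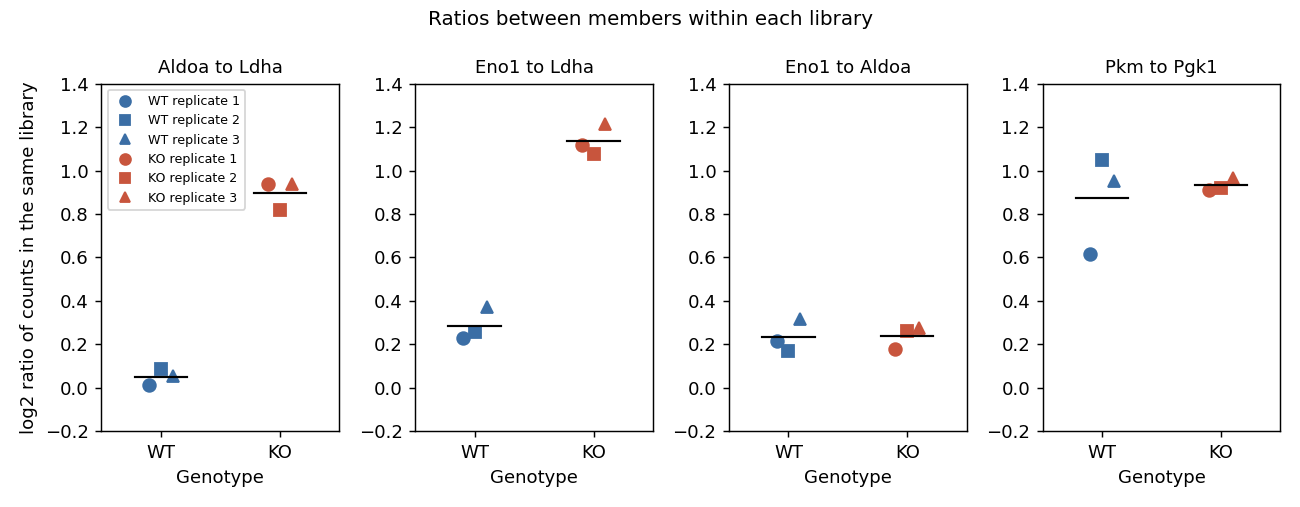
Log2 ratio of the counts of a pair of members in the same library (y axis) for WT (blue) and KO (red); black lines are means and marker shapes are replicates. The ratios of Aldoa and Eno1 to Ldha are near 0.05 and 0.29 in WT and near 0.90 and 1.14 in KO, while Eno1 to Aldoa and Pkm to Pgk1 overlap.

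The spread within a genotype was largely shared by the members. WT replicate 2 was the highest WT library for all 7 tested members, WT replicate 3 the lowest for 6 of them and KO replicate 1 the lowest KO library for 6. Other abundant transcripts did the same: WT replicate 2 was the highest WT library for 74.1% of transcripts of at least 100 CPM, WT replicate 3 the lowest for 77.6% and KO replicate 1 the lowest KO library for 74.8%. Over all tested transcripts these shares were 40.7%, 41.5% and 38.5%. The part of this shift in the results on single members was not tested.

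**Figure D5:**
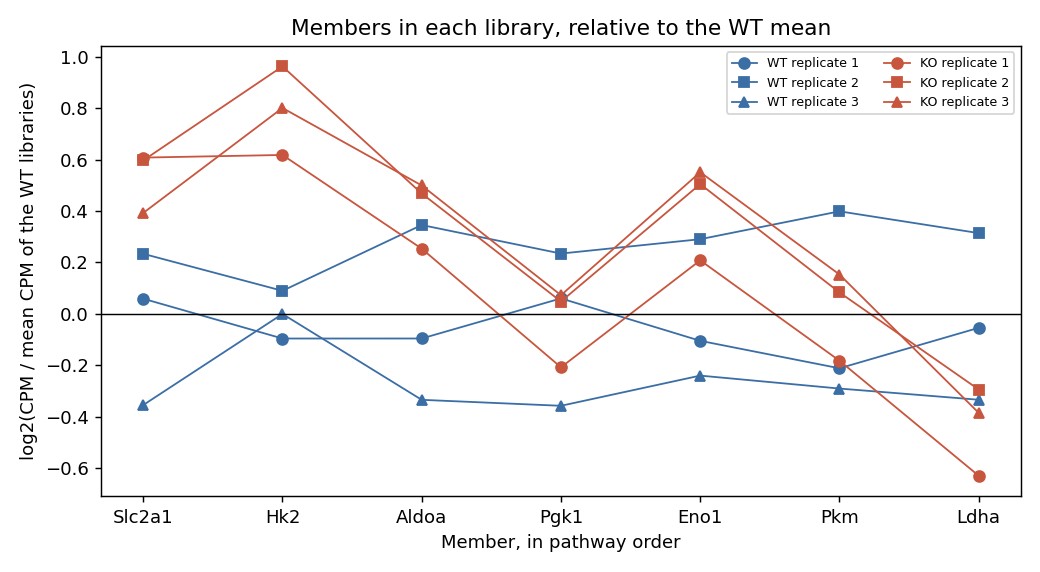
Log2 of the CPM in each library over the mean CPM of the WT libraries (y axis) for each tested member in pathway order (x axis); lines join the values of 1 library and carry no order. WT replicate 2 is the top WT line throughout and WT replicate 3 the lowest except at Hk2. The KO lines lie above the WT lines at Slc2a1 and Hk2 and overlap them at the other members. Each KO line has its own lowest point at Ldha.

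Neighbouring rows were grouped with a member where, directly or through a chain of rows, they lay within 10 lines of it and had counts within 2-fold in every library. Similar fold changes are partly built into this rule, and whether such rows count the same footprints was not measured. The neighbour of the Hk2 row was also called higher, at log2 0.83. The 10 tested neighbours of the Ldha row had log2 fold changes from -0.52 to -0.40, and the 6 tested neighbours of the Aldoa row from 0.26 to 0.41. The single neighbours of the Eno1 and Pgk1 rows had 0.43 and -0.09.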

How the data were processed

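For each library the authors deposited a table of unnormalized footprint counts with another number, a length value, per transcript; its unit is unstated apart from the match to residues minus 9 in the members. The submitters' processing notes name STAR 2.7.0a, UMI-tools 1.1.2, cutadapt 3.7, CASAVA 1.8 and the build mm10 without roles. Not given in the sources used here are the counting program, the strand setting, the fragment lengths and the handling of reads with several matches. Of 54710 rows with a count, 39355 distinct ones were used, since rows whose counts were the same in every library were merged. The main test was edgeR 4.0.16 (R 4.3.3): filterByExpr, TMM, quasi-likelihood F test with genotype as the term, adjusted over 30588 rows. It was also run on simulated counts with known changes and a fixed spread, which does not show its performance on these libraries. CPM values are TMM-scaled. Each SE is approximate, computed as the size of the log2 fold change over the square root of F. Alternatives used DESeq2 1.42.0, limma 3.58.1 and others named in the closing section. Coordinates are RefSeq gene spans on GRCm38.p6. The members, lists and tests were chosen with earlier results of these data known; all 8 members are named. Other pathway genes, cell type markers and tyrosine content were not analysed here, and promoters were not examined because fewer than 3 members were called in 1 direction. Same-numbered libraries did not consistently deviate together (correlations -0.06, 0.43 and -0.40 for numbers 1, 2 and 3). Differently numbered libraries ran from -0.61 (WT replicate 2 with KO replicate 1) to 0.64 (WT replicate 3 with KO replicate 1). With so few libraries these correlations cannot settle whether the numbers mark pairs, and the labels do not say. The numbers were not treated as pairs in the main test.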

Additional observations from a re-analysis of the deposited data

How the results depend on the processing

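As reported, 1 member was called higher and 0 lower. The number called higher was 0 with library sizes alone, no filter on low counts, DESeq2's Wald test, glmTreat against 1.2-fold, the replicate block, 1 row per family of neighbouring rows with similar counts, equal totals and KO replicates 2 and 3 summed. It was 1 with DESeq2's size factors, upper-quartile scaling, a filter of 1 CPM in 3 libraries, limma-voom, identical rows left unmerged and the length trend removed. Of all transcripts tested, 1.38% to 4.91% were called higher in the settings with 0 and 4.55% to 5.84% in those with 1. Leaving out each library gave 0 to 3, and the 3 calls, Hk2, Eno1 and Aldoa, came without WT replicate 2. In that fit 6.98% of all transcripts tested were called higher, against 5.14% as reported. The fits without another library called 1.16% to 4.30% higher. The number called lower was 0 in all 20 alternatives. The causes were not tested.

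Eno1, Aldoa, Slc2a1, Hk2 and Ldha kept their direction in all 20 alternatives. Pkm, at log2 0.03, was -0.0469 with library sizes alone and -0.0224 with KO replicates 2 and 3 summed, and ran from -0.0939 to 0.283 with a library left out. Pgk1, at -0.02, was 0.0226 with upper-quartile scaling, 0.0019 in DESeq2 and 0.0199 with the length trend removed, and ran from -0.17 to 0.12 with a library left out. The difference in the members' summed share ran from -0.0064 to 0.0259 percentage points with a library left out. With the replicate block Hk2 had log2 0.79, and the block changed no other member's call. The labels do not say whether the numbers mark pairs, and the correlations between libraries cannot settle it. Gapdh had too few counts to be tested, and Hk2 has the fewest counts among the tested members.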
